A study of Homo sapiens with 6 samples.

Results

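The genes described here encode the machinery that folds new proteins in the endoplasmic reticulum (ER) of CAL27 cells and removes those that fail to fold. They are 38 genes of the 31368 in the deposited expression table, chosen by symbol: the stress sensors and the transcription factor XBP1 (4 genes), chaperones and their helpers (12), disulfide isomerases and oxidases (8), the translocation channel (4) and ER-associated degradation (10). CAL27 is a cell line derived from a human squamous cell carcinoma of the tongue. 3 libraries of poly-A-selected RNA came from cells given 10 mM lactate for 24 h, and 3 came from CAL27 cells with no treatment, so the groups share the cell line and differ in the treatment named in the labels. CAL27 is 1 cell line, and the sources used here do not say whether lactate was added as acid or salt. The project relates lactate, and the lysine modification made from it, to gene regulation in oral carcinoma.

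Secreted and membrane proteins enter the ER through the Sec61 channel, where BiP (HSPA5), GRP94 (HSP90B1) and the lectin chaperones calnexin and calreticulin hold them while disulfide isomerases form and rearrange their disulfide bonds. Proteins that stay unfolded are recognised, passed back through the membrane and given ubiquitin by the HRD1 (SYVN1) complex, which is ER-associated degradation. When unfolded proteins accumulate, the membrane sensors IRE1 (ERN1), ATF6 and PERK (EIF2AK3) start the unfolded protein response. IRE1 splices the mRNA of XBP1, ATF6 is cut into a transcription factor, and PERK slows translation and raises the protein ATF4. XBP1 and ATF6 are known to bind short promoter elements of chaperone genes, the ER stress response elements.

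Promoter windows show where those elements lie in the members described below. Each window, credited to RefSeq on GRCh38.p14, runs from 250 bases before to 50 bases after an annotated start, and 35 of the 38 genes had at least 1 (none for DERL1, DERL3 and PDIA3). Searched on both strands were the element ERSE (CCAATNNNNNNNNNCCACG), the element ERSE-II (ATTGGNCCACG) and the core of the unfolded protein response element, UPRE (TGACGTGG). ERSE was found in 8 of the 35 genes and in 27 of all 35116 windows in the table (0.0769%). ERSE-II was found in 3 of the 35 genes and in 19 of all windows (0.0541%), and the UPRE core in 3 genes and in 256 windows (0.729%). Genes and windows are unlike units, since 6 of the 35 genes had 2 or more windows. The windows of members are also among all windows. Among 117 other ER folding and degradation genes with a window, 0 held ERSE, 0 held ERSE-II and 6 held the UPRE core. A match is a description of the letters and not a proven site, and inexact copies of an element were not counted. The following stretches are given 5′ to 3′ on the strand of the gene, with the matching letters of ERSE, ERSE-II or UPRE in capitals, the free positions of the motif in lower case, and 15 bases on either side. They stand for the major chaperones of each class, XBP1 and the degradation gene HERPUD1.
HSPA5 (ERSE), chr9:125241376-125241424, minus strand: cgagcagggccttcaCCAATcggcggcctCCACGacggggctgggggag
HSP90B1 (ERSE at 2 places, the second on the reverse strand), chr12:103930201-103930354, plus strand: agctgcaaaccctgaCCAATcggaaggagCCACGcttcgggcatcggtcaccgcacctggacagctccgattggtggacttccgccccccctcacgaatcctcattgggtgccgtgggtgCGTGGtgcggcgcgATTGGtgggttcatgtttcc
CALR (ERSE, reverse strand), chr19:12938369-12938417, plus strand: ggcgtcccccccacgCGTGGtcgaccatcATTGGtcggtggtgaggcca
XBP1 (ERSE), chr22:28800588-28800636, minus strand: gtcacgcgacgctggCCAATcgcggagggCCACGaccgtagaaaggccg
HERPUD1 (ERSE-II), chr16:56932010-56932050, plus strand: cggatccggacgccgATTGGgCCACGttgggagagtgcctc
HYOU1 (ERSE-II on the reverse strand at 2 places, the first overlapping the UPRE core), chr11:119057259-119057408, minus strand: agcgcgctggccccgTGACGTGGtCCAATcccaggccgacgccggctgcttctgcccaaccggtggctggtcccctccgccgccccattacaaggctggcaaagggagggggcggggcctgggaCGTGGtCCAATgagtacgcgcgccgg
PDIA4 and EIF2AK3 are shown for contrast, by the 100 bases before the start, since no match to these letters was in their windows.
PDIA4, chr7:149028491-149028590, minus strand: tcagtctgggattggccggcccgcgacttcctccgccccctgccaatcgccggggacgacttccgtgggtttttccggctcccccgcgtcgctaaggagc
EIF2AK3, chr2:88627465-88627564, minus strand: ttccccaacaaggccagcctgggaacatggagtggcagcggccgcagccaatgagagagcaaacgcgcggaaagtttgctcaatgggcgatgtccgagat

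Expression was deposited as FPKM, a read count divided by gene length and by a denominator for the library. Whole reads could be recovered from the values, and they summed to 30677800 to 39509993 in lactate and 25895115 to 34316904 in untreated libraries. The denominators, which were scaled and are not these sums, were 30957477 to 40220226 in lactate and 25163374 to 33297625 in untreated libraries. Libraries of a group had a Pearson r of 0.996 to 0.997 over genes (log2 values), and libraries of different groups 0.989 to 0.991. All 10 squamous epithelial markers examined (KRT5, TP63 and others) were at 1 FPKM or more in at least 3 libraries, and their summed level was 1159 to 1178 FPKM in lactate and 1147 to 1165 FPKM in untreated cells. Within that sum 6 were higher, 2 lower and 2 not past: KRT17 stood at 136 ± 3.5 FPKM in lactate and 108 ± 1.8 FPKM in untreated cells, KRT5 at 118 ± 2.2 FPKM in lactate and 155 ± 1.7 FPKM in untreated cells, and SFN, the most abundant, at 598 ± 8.3 FPKM in lactate and 602 ± 8.1 FPKM in untreated cells. The part of these markers in the results was not tested. Of the fibroblast and leukocyte markers 0 reached that level, and of the endothelial ones 1 (CDH5). Of 5 plasma and secretory cell markers in the table, JCHAIN, MZB1 and PRDM1 were near 0, while SDC1, which squamous epithelium also makes, stood at 117 ± 1.8 FPKM in lactate and 135 ± 2.1 FPKM in untreated cells. BHLHA15, a factor of secretory cells and a known target of XBP1, stood at 2.89 ± 0.17 FPKM in lactate and 4.25 ± 0.033 FPKM in untreated cells (limma adjusted p = 0.000124). The list summed to 119 to 122 FPKM in lactate and 138 to 142 FPKM in untreated cells, and its part in the results was not tested. Because poly-A RNA of whole cultures was read, less RNA per cell and fewer cells of a kind cannot be told apart. Whether replicates were grown as separate cultures is not in the labels, and the p-values then reflect the spread among these 6 libraries alone, possibly a technical one.

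The comparison asks how the mRNAs of ER protein folding and degradation stood after 24 h of lactate. Of the 38 genes, 37 reached 1 FPKM in at least 3 libraries and were tested, and DERL3 did not. In lactate, 11 of the 37 were higher and 17 were lower by limma on log2(FPKM + 1) with a Benjamini-Hochberg adjusted p under 0.05 over 11792 genes, while 9 did not pass. The 11 include EIF2AK3, which reached 1 FPKM in the lactate libraries alone and so entered the test through the group where it was high. With no filter, where all 38 were tested, 11 were higher and 16 lower. Of all 31368 genes, 9.26% were then higher and 9.81% lower. Only 11792 of those genes reach the filter, so these shares are no like measure for members, of which 37 reach it. Among all genes tested with the filter, 58.6% passed, 27.7% higher and 30.9% lower. The members stood at 75.7% passed, 29.7% higher and 45.9% lower. Their median log2 fold change (lactate over untreated) was -0.067, beside -0.016 over all tested genes, and the values of the 2 groups did not overlap in 31 of the 37 (83.8%) beside 65.5% of all tested genes. Changes were small: 13 of the 28 that passed changed by less than 0.25 on the log2 scale, and the median size was 0.26 beside 0.23 over all genes that passed. Against a minimum fold of 1.2, 1 member was higher (UGGT1) and 4 were lower (XBP1, HYOU1, CRELD2 and SEC61A1), beside 1.59% higher and 2.05% lower of all genes. Quantile normalization gave 14 members higher and 15 lower, beside 28.1% higher and 27.3% lower of all genes. When the totals of recovered reads set the scale instead, 15 members were higher and 14 lower, beside 35.4% and 21.9% of all genes. Under that scale SIL1 (log2 fold change -0.083, adjusted p = 0.0638), DERL1 (-0.039, 0.224) and TXNDC5 (-0.15, 0.0676) did not pass, and PDIA3 (0.11), SSR1 (0.11), PDIA5 (0.090) and EDEM2 (0.15) passed as higher.

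**Figure D1:**
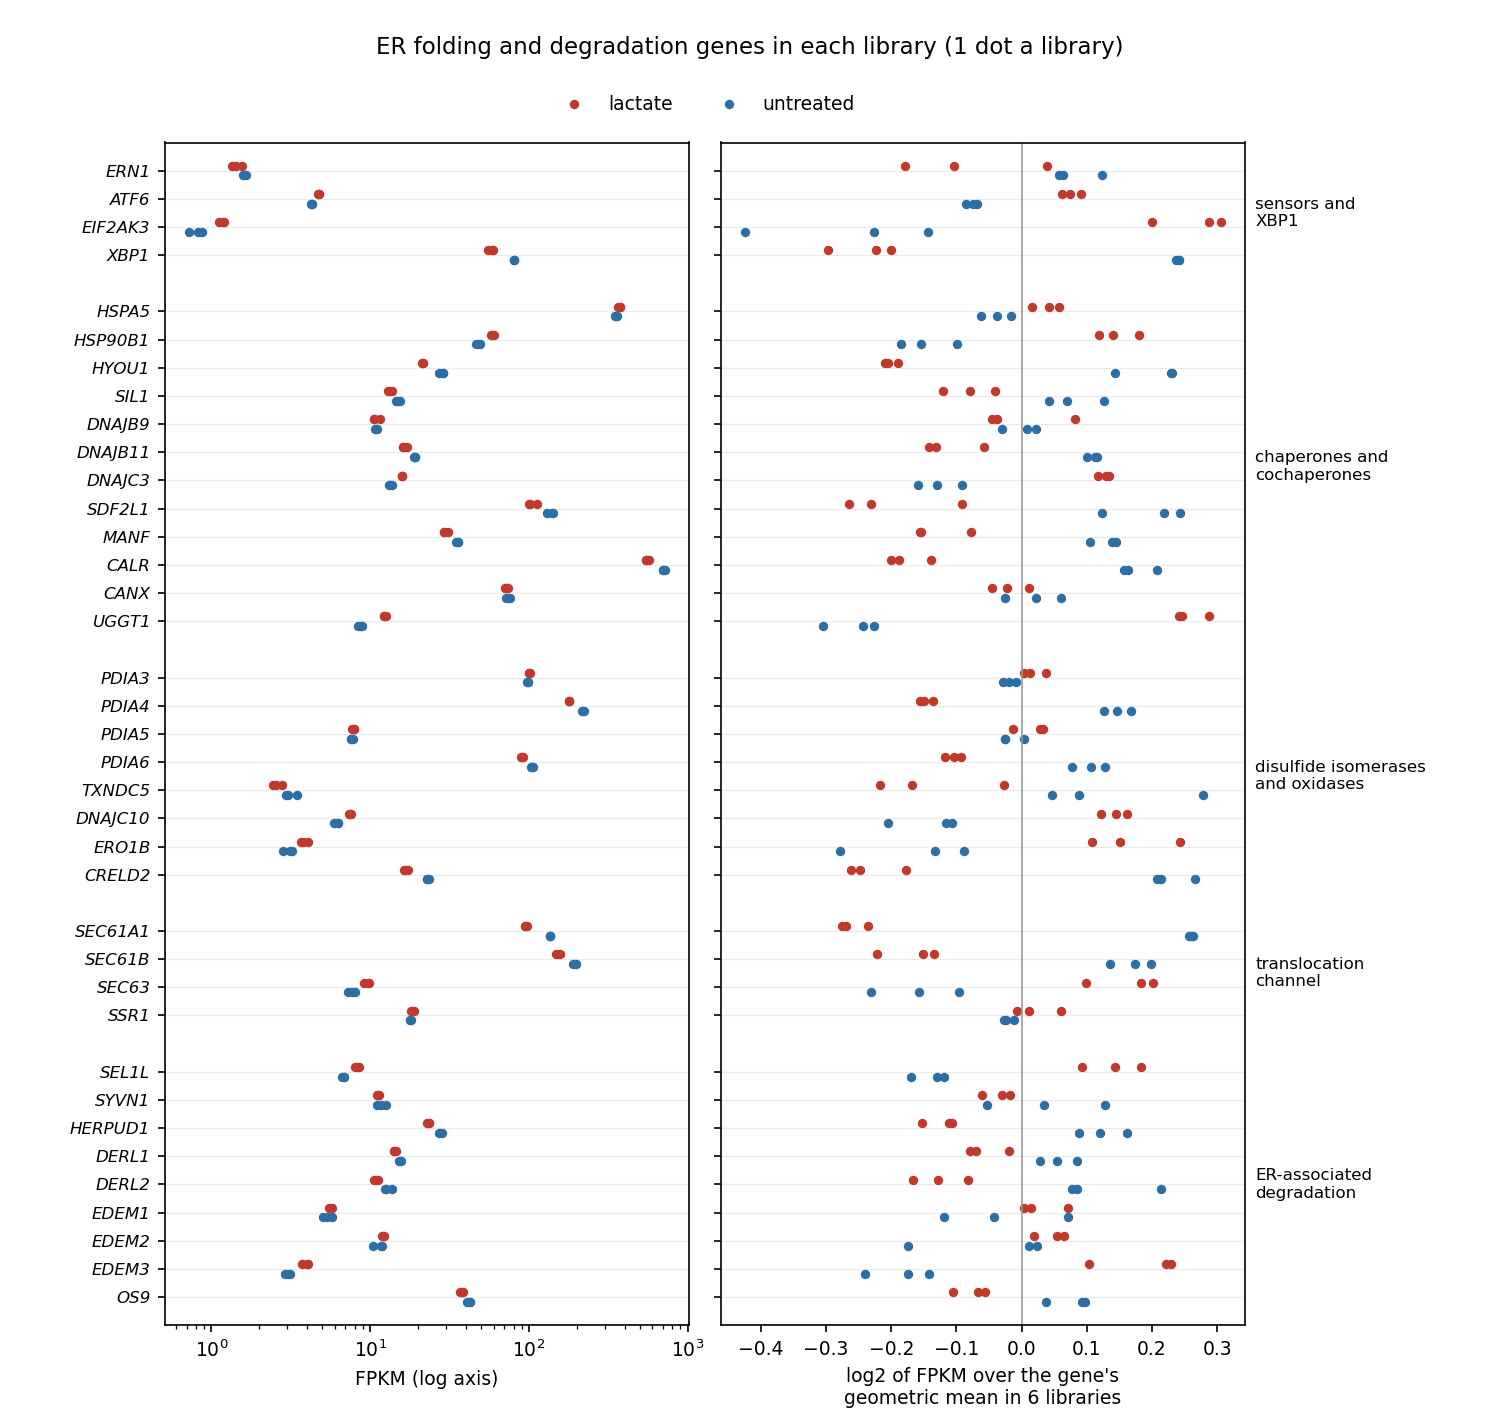
Level of each of the 37 tested genes in every library, as FPKM on a log axis (left) and as log2 of FPKM over the gene's geometric mean in the 6 libraries (right); 1 dot is 1 library, red for lactate and blue for untreated. Levels ran from about 1 FPKM for EIF2AK3 and ERN1 to 545 to 724 FPKM for CALR, and in 31 genes the red and blue dots did not overlap.

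Levels spread widely between members. Mean levels in untreated cells ran from 0.81 FPKM (EIF2AK3) to 708 FPKM (CALR), and CALR with HSPA5 made up 42.5% to 43.5% of the members' summed FPKM in lactate libraries and 42.2% to 43.1% in untreated ones. That sum was 2148 to 2176 FPKM in lactate and 2483 to 2513 FPKM in untreated libraries, a ratio of 0.866. FPKM is a level per length, and the lengths implied by the recovered reads were 1.64 to 3.81 times the GENCODE 29 exon length for 7 of the 38 genes (ERN1, ATF6, EIF2AK3, HSPA5, HSP90B1, DNAJB11 and CANX) against 0.895 to 1.15 times for the others. Levels of those 7 are therefore low beside those of other genes. Plain ratios of FPKM between groups do not depend on the length. The filter at 1 FPKM and fold changes on log2(FPKM + 1) do depend on it, most for low genes such as EIF2AK3 and ERN1.

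Among the sensors, EIF2AK3 (PERK) and ATF6 were higher in lactate and ERN1 (IRE1) did not pass. EIF2AK3, the kinase that phosphorylates eIF2α, had 1.199, 1.114 and 1.184 FPKM in lactate and 0.878, 0.722 and 0.829 FPKM in untreated cells. All 3 lactate libraries lay above all 3 untreated ones, with a ratio of means of 1.44. Its log2 fold change was 0.26 ± 0.056 (SE) on the log2(FPKM + 1) scale, where the added 1 shrinks the change of so low a gene (limma adjusted p = 0.00559), and it rested on 376 to 985 reads per library. Its 3 lactate values were over 1 FPKM and its 3 untreated values under it, so the filter admitted it through lactate; with no filter its adjusted p was 0.0175, and it was not tested when any 1 lactate library was left out. ATF6, the membrane-bound transcription factor released by cleavage in the Golgi, averaged 4.75 ± 0.047 FPKM in lactate and 4.28 ± 0.026 FPKM in untreated cells (SD, n = 3 each; log2 fold change 0.12 ± 0.029, adjusted p = 0.00821). ERN1, the kinase and ribonuclease that splices XBP1, had 1.35, 1.57 and 1.42 FPKM in lactate and 1.59, 1.67 and 1.60 FPKM in untreated cells. The lactate values were the lower ones and did not overlap the untreated ones, but the fitted difference of -0.098 had a 95% confidence interval of -0.21 to 0.018 (adjusted p = 0.128). The added 1 shrinks the change of this low gene too. With voom on recovered reads ERN1 passed as lower (log2 fold change -0.16, limma adjusted p = 0.00808).

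XBP1, the transcription factor whose mRNA IRE1 splices, fell. It had 55.4, 59.2 and 58.3 FPKM in lactate and 80.52, 80.48 and 80.25 FPKM in untreated cells, from 5195 to 8091 reads per library. The untreated libraries were almost alike and every lactate library lay well below them. The log2 fold change was -0.47 ± 0.027 (adjusted p = 1.8e-05) and the ratio of means 0.717. The gene lies at chr22:28794555-28800597 (GRCh38, GENCODE 29). Gene-level values cannot tell the spliced from the unspliced mRNA, so they carry no reading of IRE1 activity.

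Of the 12 chaperones 4 rose, 6 fell and 2 did not pass, with a median log2 fold change of -0.093. All tested genes stood at 27.7% higher and 30.9% lower, with a median of -0.016. Counts of this class and of the classes below stand beside these shares, and a mix of directions is not particular to any class. HSPA5 (BiP), the main ER Hsp70 and the usual marker of the unfolded protein response, had 377, 366 and 373 FPKM in lactate and 358, 347 and 353 FPKM in untreated cells. The groups did not overlap, and their means stood at a ratio of 1.055 (log2 fold change 0.077 ± 0.018, adjusted p = 0.00872). The size of this rise depended on the scaling. It was 0.29 after quantile normalization, 0.15 with totals of recovered reads and 0.055 after median centring, each past the threshold. HSP90B1 (GRP94), the ER Hsp90, had 60.1, 57.6 and 58.5 FPKM in lactate and 49.5, 46.7 and 47.7 FPKM in untreated cells. Every lactate library was higher, by 0.29 ± 0.028 on the log2 scale (adjusted p = 0.000144). UGGT1, the enzyme that puts a glucose back on misfolded glycoproteins so that calnexin or calreticulin can bind again, showed the largest log2 fold change upward of the 37 genes on the log2(FPKM + 1) scale, while with voom on recovered reads EIF2AK3 did (0.52). It had 12.66, 12.29 and 12.25 FPKM in lactate and 8.86, 8.40 and 8.76 FPKM in untreated cells. The ratio of means was 1.43, beside 1.44 for EIF2AK3, and the log2 fold change 0.47 ± 0.030 (adjusted p = 2.91e-05), at chr2:128091200-128195677. DNAJC3 (p58IPK), an ER cochaperone of the J-domain type, rose as well, with means of 15.9 ± 0.090 FPKM in lactate and 13.4 ± 0.31 FPKM in untreated cells (log2 fold change 0.24, adjusted p = 0.000243).

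CALR, HYOU1, SDF2L1, MANF, DNAJB11 and SIL1 fell. CALR (calreticulin), the soluble lectin chaperone and the most abundant member, had 569, 550 and 545 FPKM in lactate and 723.9, 701.5 and 698.9 FPKM in untreated cells. Its highest lactate value was far below its lowest untreated value, and the log2 fold change was -0.35 ± 0.022 (adjusted p = 2.64e-05). The size depended on the scaling here too. It was -0.14 after quantile normalization and -0.28 with totals of recovered reads, each past the threshold. HYOU1 (GRP170), a large Hsp70 relative that releases ADP from BiP, had 21.4, 21.6 and 21.3 FPKM in lactate and 28.9, 28.9 and 27.2 FPKM in untreated cells. The lactate libraries were nearly equal and all lower (log2 fold change -0.39 ± 0.029, adjusted p = 4.81e-05). SDF2L1, a partner of the BiP cochaperone DNAJB11, had 99.8, 113 and 102 FPKM in lactate and 131, 142 and 140 FPKM in untreated cells. The groups were apart and the drop was of the size seen in HYOU1 (-0.39 ± 0.052, adjusted p = 0.000863). MANF, a small secreted ER stress protein, averaged 29.7 ± 0.94 FPKM in lactate and 35.5 ± 0.53 FPKM in untreated cells (log2 fold change -0.25). DNAJB11 (ERdj3) averaged 16.4 ± 0.53 FPKM in lactate and 19.1 ± 0.11 FPKM in untreated cells (-0.21). SIL1, the other nucleotide exchange factor of BiP, averaged 13.4 ± 0.37 FPKM in lactate and 14.95 ± 0.45 FPKM in untreated cells (-0.15).

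The other lectin chaperone, calnexin (CANX), had 73.4, 70.5 and 71.7 FPKM in lactate and 75.9, 71.6 and 73.9 FPKM in untreated cells. The groups overlapped and the difference did not pass (log2 fold change -0.038, 95% confidence interval -0.10 to 0.025, adjusted p = 0.26). After quantile normalization it passed as higher (0.095, adjusted p = 0.0242) and with the GC and length trend removed as lower, so its direction depended on the processing. Calnexin and calreticulin bind the same glycan; the difference between their changes was not tested. DNAJB9 (ERdj4), a J-domain protein known as a target of XBP1, overlapped too, with 10.9 ± 0.54 FPKM in lactate and 10.9 ± 0.20 FPKM in untreated cells.

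Among the disulfide isomerases and oxidases 2 of 8 rose, 4 fell and 2 did not pass. PDIA4 (ERp72), an isomerase with several thioredoxin-like domains, had 180, 178 and 178 FPKM in lactate and 222, 219 and 216 FPKM in untreated cells. The groups were far apart compared with their spread (log2 fold change -0.29 ± 0.017, adjusted p = 1.99e-05). The log2 fold change was -0.12 after quantile normalization and -0.22 with totals of recovered reads, each past the threshold. PDIA6, an isomerase that works with BiP, averaged 90.6 ± 0.77 FPKM in lactate and 105 ± 1.8 FPKM in untreated cells (-0.21 ± 0.019). CRELD2, an ER stress-inducible protein with isomerase-like activity, had 16.4, 17.4 and 16.6 FPKM in lactate and 22.8, 22.7 and 23.6 FPKM in untreated cells. It fell by the most in this class, by 0.44 on the log2 scale (adjusted p = 3.78e-05). PDIA3 (ERp57), the isomerase that docks on calnexin and calreticulin, had 102.3, 99.97 and 100.6 FPKM in lactate and 99.1, 97.8 and 98.4 FPKM in untreated cells. The values did not overlap, but the difference of 0.036 did not pass (95% confidence interval -0.0045 to 0.077, adjusted p = 0.111). PDIA3 passed as higher after quantile normalization (0.18, limma adjusted p = 0.000185) and with totals of recovered reads (0.11). PDIA5 overlapped between groups, with 7.83 ± 0.14 FPKM in lactate and 7.66 ± 0.091 FPKM in untreated cells.

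The genes of this class that rose were the reductase DNAJC10 (ERdj5) and the oxidase ERO1B. DNAJC10, which opens disulfide bonds of proteins bound for degradation, averaged 7.51 ± 0.10 FPKM in lactate and 6.165 ± 0.23 FPKM in untreated cells (log2 fold change 0.25 ± 0.034, adjusted p = 0.000608). ERO1B, which reoxidises isomerases, averaged 3.84 ± 0.18 FPKM in lactate and 3.05 ± 0.21 FPKM in untreated cells (0.26 ± 0.050, adjusted p = 0.00327). TXNDC5 (ERp46), a further isomerase, had 2.54, 2.80 and 2.46 FPKM in lactate and 2.95, 3.04 and 3.46 FPKM in untreated cells. It was lower in lactate by 0.20 ± 0.060 (adjusted p = 0.0204), from 333 to 503 reads per library. That call was lost without lactate replicate 1 (adjusted p = 0.0585), lactate replicate 3 (0.0676) or untreated replicate 3 (0.0549). TXNDC5 also shares 60.6% of its exon length, on the same strand, with the readthrough gene BLOC1S5-TXNDC5, so that its value depends on how shared reads were counted.

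In the translocation channel 2 of 4 genes fell, 1 rose and 1 did not pass. SEC61A1, the pore-forming subunit, showed the largest fall of the 37 genes on that scale (XBP1 did with the GC and length trend removed, and CRELD2 after quantile normalization). It had 94.4, 96.6 and 94.0 FPKM in lactate and 136, 136 and 137 FPKM in untreated cells. Neither group spread by more than a few FPKM while their means stood at a ratio of 0.697 (log2 fold change -0.52 ± 0.018, adjusted p = 6.27e-06, chr3:128051641-128071683). SEC61B, the small subunit beside the pore, averaged 153 ± 4.9 FPKM in lactate and 193 ± 4.3 FPKM in untreated cells (-0.34 ± 0.028). SEC63, which brings BiP to the channel, went the other way, with 9.81, 9.14 and 9.69 FPKM in lactate and 7.98, 7.65 and 7.27 FPKM in untreated cells. All lactate values were above all untreated ones (0.29 ± 0.041, adjusted p = 0.000793). SSR1, a subunit of the translocon-associated TRAP complex, averaged 18.5 ± 0.45 FPKM in lactate and 18.0 ± 0.10 FPKM in untreated cells and did not pass (0.040, adjusted p = 0.216).

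In ER-associated degradation 2 of 9 tested genes rose, 4 fell and 3 did not pass. SEL1L, the adaptor that holds the HRD1 ligase complex together, had 7.99, 8.27 and 8.50 FPKM in lactate and 6.89, 6.84 and 6.66 FPKM in untreated cells. It was higher in every lactate library (log2 fold change 0.25 ± 0.032, adjusted p = 0.00053). SYVN1 (HRD1), its ligase partner, had 11.37, 11.04 and 11.28 FPKM in lactate and 11.1, 12.6 and 11.8 FPKM in untreated cells. Those values overlapped, and the difference of -0.067 did not pass (95% confidence interval -0.17 to 0.035). SYVN1 passed as lower when untreated replicate 1 was left out. HERPUD1, a ubiquitin-like membrane protein of the same complex and a strong target of ER stress, had 23.5, 23.6 and 22.8 FPKM in lactate and 27.0, 28.4 and 27.6 FPKM in untreated cells. It fell without overlap, by 0.24 on the log2 scale (adjusted p = 0.000281).

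The mannosidase-like EDEM proteins, which mark glycoproteins for degradation, had 1 gene past the threshold. EDEM3 averaged 3.93 ± 0.19 FPKM in lactate and 3.04 ± 0.11 FPKM in untreated cells and rose (log2 fold change 0.29 ± 0.042, adjusted p = 0.000866). EDEM1 averaged 5.63 ± 0.14 FPKM in lactate and 5.41 ± 0.36 FPKM in untreated cells, and EDEM2 12.1 ± 0.20 FPKM in lactate and 11.35 ± 0.86 FPKM in untreated cells. In both the groups overlapped and the test did not pass. The differences among the 3 were not tested, and with the GC and length trend removed EDEM2 passed in place of EDEM3. OS9, a lectin that reads the trimmed glycan, averaged 37.7 ± 0.67 FPKM in lactate and 41.85 ± 0.95 FPKM in untreated cells and fell (-0.15 ± 0.025, adjusted p = 0.00181), though not past the threshold after quantile normalization (-0.055, adjusted p = 0.102). The derlins are membrane proteins of the passage back to the cytosol. DERL2 averaged 10.9 ± 0.32 FPKM in lactate and 12.9 ± 0.70 FPKM in untreated cells and fell (-0.23 ± 0.042, adjusted p = 0.00238). DERL1 averaged 14.3 ± 0.32 FPKM in lactate and 15.45 ± 0.31 FPKM in untreated cells (-0.10 ± 0.028, adjusted p = 0.014). Its call was lost without lactate replicate 3 (adjusted p = 0.0503) and after quantile normalization (0.0893). DERL3, which in other tissues marks secretory cells, held 1, 0 and 1 reads in lactate and 0, 2 and 0 reads in untreated libraries, under the limit of 3 reads per library that a count of 0 allows. Exons of SMARCB1 on the opposite strand cover 77.0% of the DERL3 exon length, so these counts depend on how shared reads were counted.

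**Figure D2:**
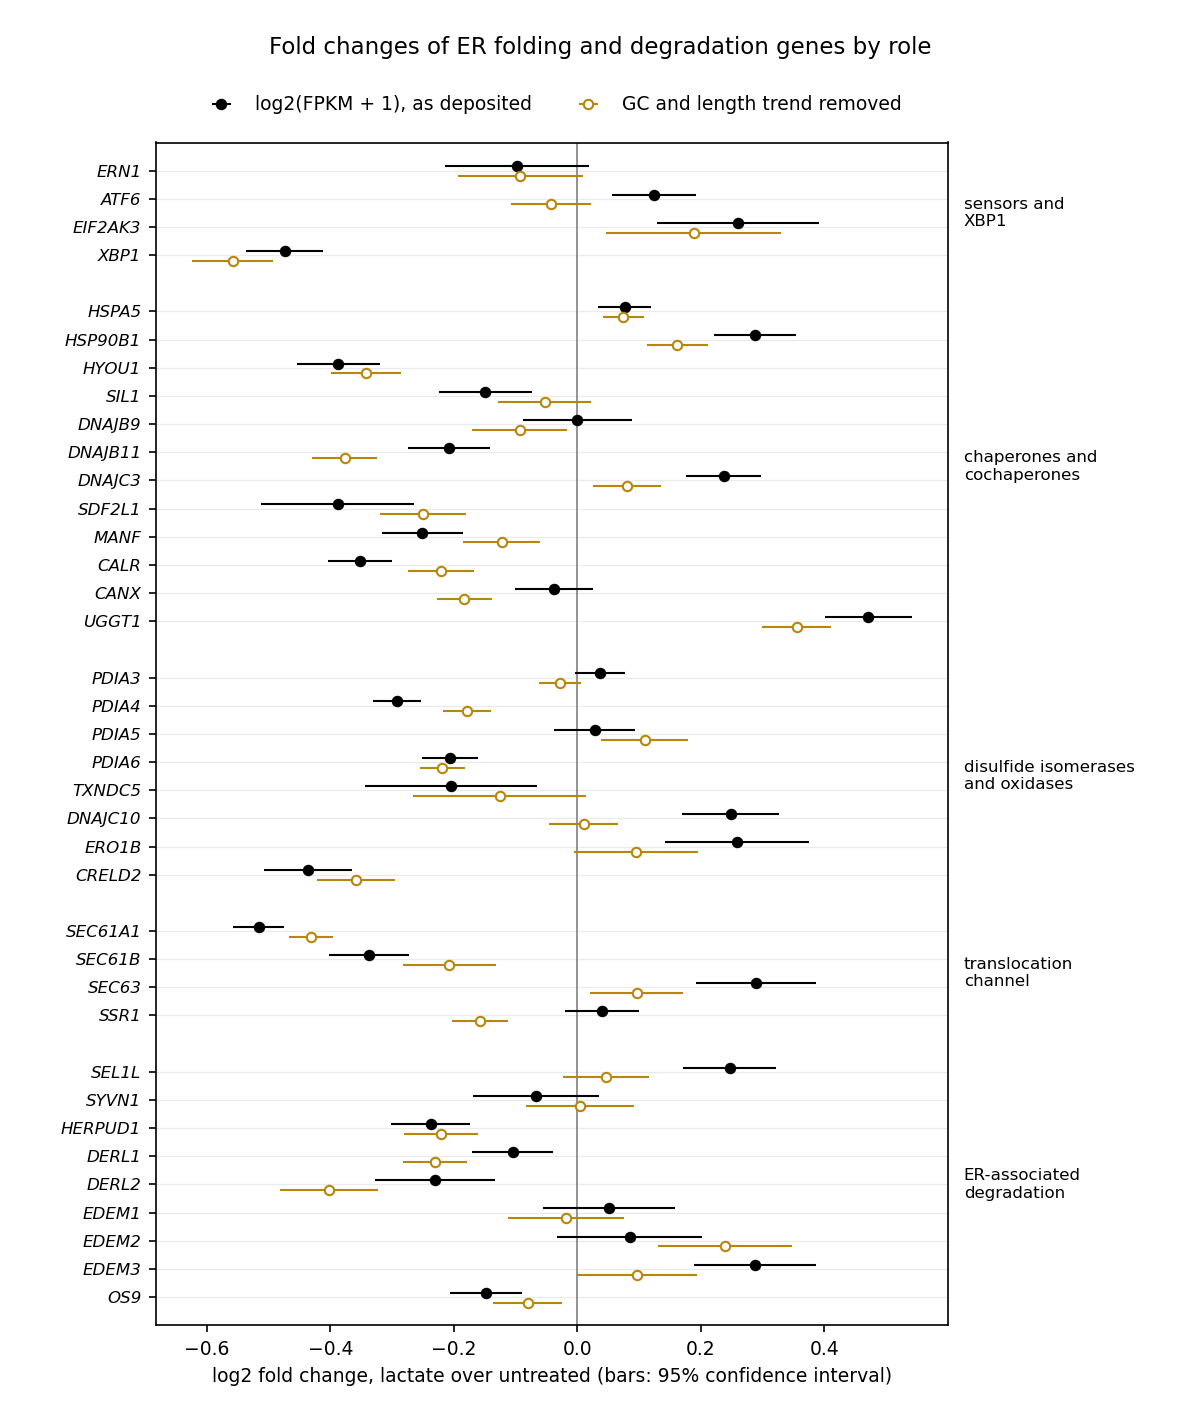
Log2 fold change (lactate over untreated) of the 37 tested genes by role, with 95% confidence intervals. Filled black points are from log2(FPKM + 1). Open points are from the same values with the trend on GC content and length taken out of each library. Among black points UGGT1 (0.47) and SEC61A1 (-0.52) lie at the ends, and the open point of XBP1 (-0.56) lies lower still. Past only in black are ATF6, SEL1L, EDEM3, DNAJC10 and ERO1B as higher and SIL1 and TXNDC5 as lower.

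Members that rose were on the whole lower in GC content and longer than those that fell, with overlap. The 11 that rose had a median GC content of 39.9% (range 37.0% to 46.0%) and a median exon length of 7804 nt. The 17 that fell had a median of 51.6% (37.8% to 65.5%) and 4387 nt, and 5 of them (DNAJB11, DERL2, XBP1, DERL1 and PDIA6) lay within the GC range of the rises. All tested genes had medians of 48.1% and 4416 nt. Across the 37 genes the log2 fold change had a Spearman rho of -0.58 with GC content and 0.50 with exon length, a description over genes that share the same 6 libraries. The same trend ran through the transcriptome, where, with genes ranked by GC content and cut into 10 equal bins, the median log2 fold change was 0.15 in bin 1 (median GC content 36.9%) and -0.14 in bin 8 (56.1%).

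With that trend removed from each library, 8 members were higher and 18 lower, beside 22.0% higher and 27.6% lower of the 11588 genes so tested. Of the 11 rises, 6 remained: EIF2AK3 (log2 fold change 0.19, adjusted p = 0.0318, admitted by the filter through lactate), HSPA5 (0.074), HSP90B1 (0.16), UGGT1 (0.36), DNAJC3 (0.080) and SEC63 (0.096). ATF6 (-0.043), SEL1L (0.046), EDEM3 (0.096), DNAJC10 (0.010) and ERO1B (0.096) did not pass, with adjusted p of 0.247, 0.245, 0.0935, 0.757 and 0.104 in that order. Of the 17 falls, 15 remained, among them XBP1 (-0.56), SEC61A1 (-0.43), CRELD2 (-0.36), HYOU1 (-0.34) and CALR (-0.22), while SIL1 (-0.053) and TXNDC5 (-0.13) did not pass. EDEM2 (0.24) and PDIA5 (0.11) then passed as higher, and CANX (-0.18), SSR1 (-0.16) and DNAJB9 (-0.093) as lower. What part the trend has in each difference was not tested.

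**Figure D3:**
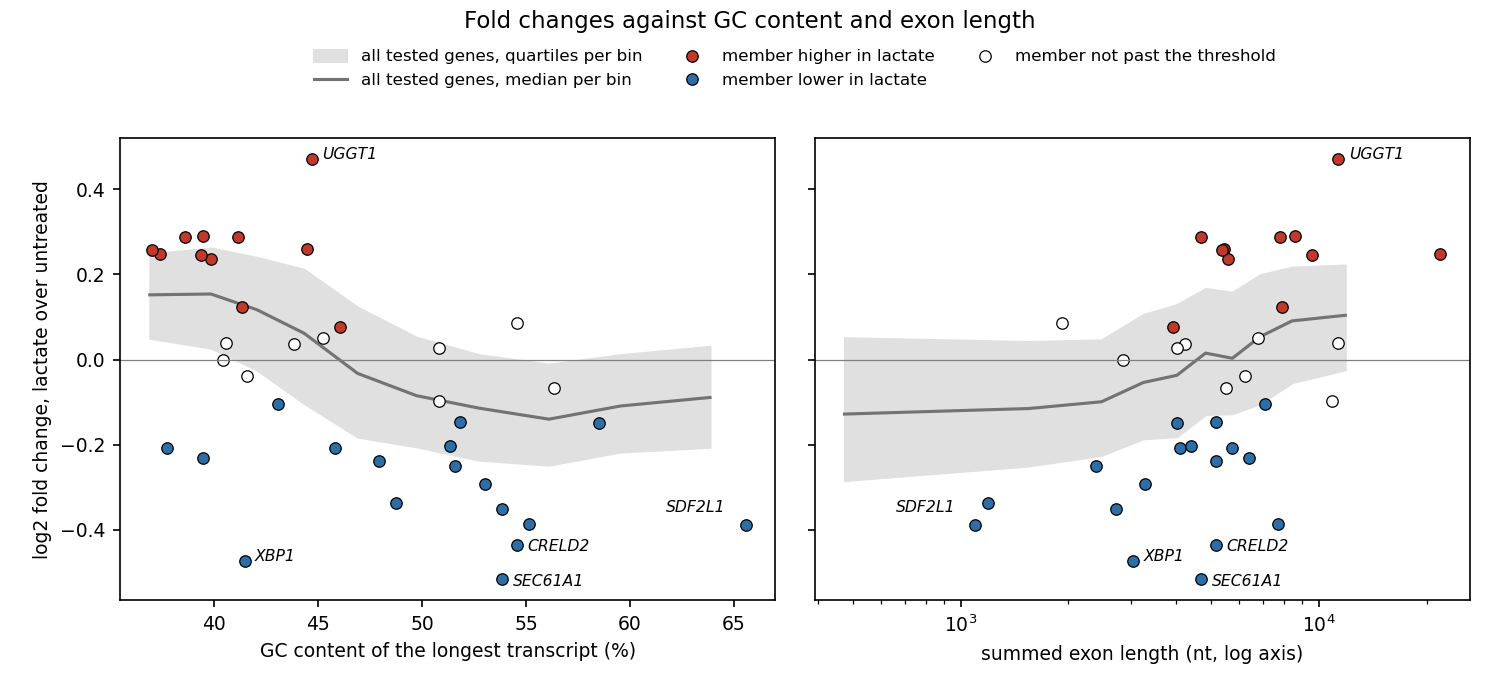
Log2 fold change (lactate over untreated) against GC content of the longest transcript (left, %) and summed exon length (right, nt on a log axis). The line and band are the median and quartiles of all tested genes in 10 equal bins, and dots are the 37 members coloured by call; members with risen mRNA lie at 37.0% to 46.0% GC, and 5 of those that fell, among them XBP1 (41.5%), lie in the same range.

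The genes with ERSE or ERSE-II in a promoter window did not share a direction. Of the 11 members with ERSE or ERSE-II, 3 were higher (HSPA5, HSP90B1 and ERO1B), 7 were lower (XBP1, HYOU1, SDF2L1, CALR, PDIA6, CRELD2 and HERPUD1) and CANX did not pass, with a median log2 fold change of -0.24. The 24 members with a window and neither element had 8 higher, 9 lower and 7 not past, with a median of 0.014. They include DNAJC10 (higher) and TXNDC5 (lower), which hold the UPRE core. After removal of the GC and length trend these medians were -0.22 and -0.048. HSPA5, CALR and XBP1 each had 1 exact match to ERSE in the window searched, as printed above. Their log2 fold changes were 0.077, -0.35 and -0.47. A list of 14 members known to be induced by ER stress gave 4 higher, 8 lower and 2 not past, with a median of -0.22. The list, whose genes are not marked out here, was chosen with earlier results of these data known, so no direction is read from its counts. All tested genes stood at 27.7% higher and 30.9% lower, with a median of -0.016. Once the trend was removed, the list gave 3 higher and 9 lower, with a median of -0.15, beside 22.0% and 27.6% of all genes. With totals of recovered reads it again gave 4 higher and 8 lower, beside 35.4% and 21.9%. The counts were the same after quantile normalization, where 28.1% of all genes were higher and 27.3% lower.

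Other genes of the same pathway were read from 6 lists holding 140 genes, of which 129 were tested. Of these, 35 were higher, 63 lower and 31 not past, with a median log2 fold change of -0.078. After quantile normalization 45 were higher and 49 lower, and with totals of recovered reads 50 were higher and 47 lower. Removal of the GC and length trend left 31 higher and 60 lower. Over all tested genes the shares were 27.7% higher and 30.9% lower on log2(FPKM + 1), with a median of -0.016. They were 28.1% and 27.3% after quantile normalization, and 35.4% and 21.9% with those totals. With the GC and length trend removed they were 22.0% and 27.6%. Counts of the single lists below stand beside the same shares. Among paralogs of members, ERO1A, the more widely expressed ER oxidase, averaged 36.0 ± 1.3 FPKM in lactate and 27.1 ± 0.96 FPKM in untreated cells and rose (log2 fold change 0.39, adjusted p = 0.000106), as did ERO1B. UGGT2 rose (0.25), as did UGGT1. P4HB (PDI itself) fell (-0.21), as did ATF6B (-0.19) and SDF2 (-0.13), while HERPUD2 (-0.011) did not pass. UGGT2 (0.052, adjusted p = 0.385), ATF6B (-0.086, 0.0514) and SDF2 (-0.055, 0.097) lost their calls after removal of the GC and length trend. SEC61A2 stood at 1.09 FPKM in lactate and 0.886 FPKM in untreated cells and was not tested, and ERN2 was near 0. Among the TRAP subunits SSR2 (-0.30) and SSR4 (-0.27) fell and SSR3 (0.022) did not pass, though it did as lower (-0.12) with that trend removed.

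The signalling and stress output list had 7 of 26 tested genes higher and 13 lower, with a median of -0.13. After quantile normalization it had 10 higher and 12 lower (median 0.012), and with totals of recovered reads 12 higher and 12 lower (median -0.056). Removal of the GC and length trend gave 7 higher and 12 lower (median -0.081). ATF4, the transcription factor raised by PERK and by other eIF2α kinases, averaged 133 ± 2.5 FPKM in lactate and 200.3 ± 1.3 FPKM in untreated cells (log2 fold change -0.58 ± 0.019, adjusted p = 5.69e-06). The ATF4 targets CHAC1 (-0.58), SESN2 (-0.56), TRIB3 (-0.43), PPP1R15A (-0.41) and DDIT3 (-0.38) were lower too. ATF3, a further output in the list, did not pass (-0.071); it is named after its value was seen. DDIT3 (CHOP), a death-associated factor of the response, averaged 33.4 ± 1.2 FPKM in lactate and 43.8 ± 1.9 FPKM in untreated cells. DDRGK1 (-0.51), an ER membrane protein of the UFM1 pathway, fell, and CREB3L2 (0.31), EIF2AK2 (0.35) and EIF2AK1 (0.22) rose.

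The list of translocation and signal peptide genes had 5 higher and 13 lower of 21 tested (median -0.16). It had 3 higher and 15 lower with the GC and length trend removed. Quantile normalization gave 6 higher and 10 lower, and totals of recovered reads 6 higher and 11 lower. SRPRB, the membrane subunit of the signal recognition particle receptor, fell by 0.54 on the log2 scale and GET3, which delivers tail-anchored proteins, by 0.40, while SRP54 (0.37), EMC2 (0.35) and SPCS3 (0.26) rose. Glycan addition and trimming had 4 higher and 10 lower of 16 (median -0.11). It had 5 higher and 4 lower after quantile normalization, and 5 higher and 5 lower with the GC and length trend removed. STT3B (0.32), MAGT1 (0.25) and MAN1A1 (0.22) were higher, and the oligosaccharyltransferase subunits TMEM258 (-0.32), RPN1 (-0.28) and DDOST (-0.23) lower. Among further degradation genes 6 were higher and 15 lower of 31 (median -0.063). They had 10 higher and 9 lower with totals of recovered reads, and 6 higher and 14 lower with the GC and length trend removed. FAM8A1 (0.39), USP25 (0.35) and UBXN4 (0.29) were higher, and SELENOS (-0.39), UBE2G2 (-0.28) and RNF185 (-0.25) lower. Further disulfide and prolyl isomerases had 8 higher and 7 lower of 18 (median -0.062), with ERP44 (0.25) and FKBP9 (0.21) higher and PPIB (-0.46), TMX2 (-0.42) and ERP29 (-0.29) lower. Removal of the GC and length trend left 5 higher and 7 lower. Further chaperones had 5 higher and 5 lower of 17 (median 0.052). They had 10 higher and 4 lower with totals of recovered reads, 8 higher and 4 lower after quantile normalization, and 5 higher and 7 lower (median -0.055) with the GC and length trend removed. SERPINH1, the collagen chaperone, fell (-0.53), as did CNPY2 (-0.43) and CNPY3 (-0.31). The cargo receptor subunits LMAN1 (0.37) and MCFD2 (0.16) and the calcium-binding CALU (0.25) rose.

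**Figure D4:**
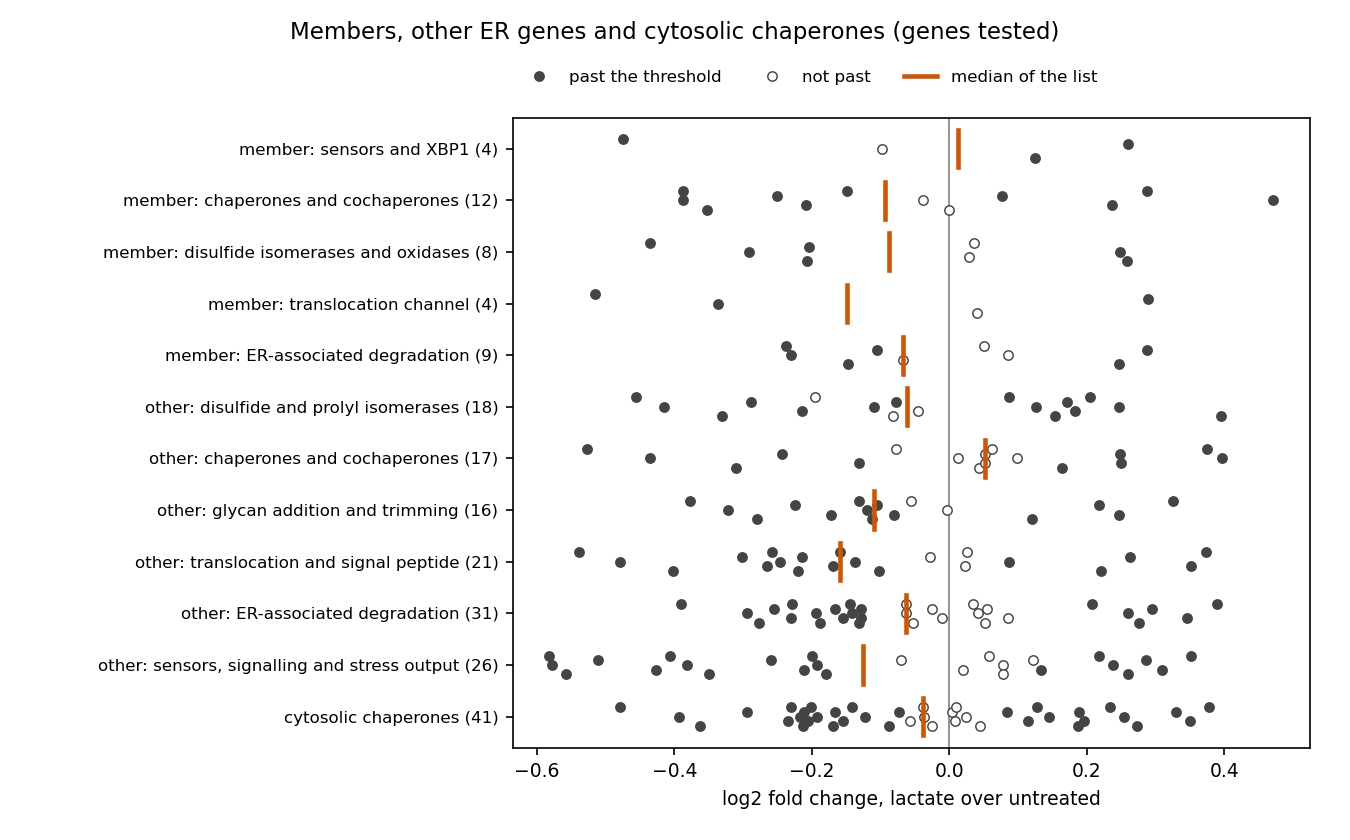
Log2 fold change (lactate over untreated) of every tested gene in the 5 member classes, 6 lists of other ER genes and the cytosolic chaperones; the number tested is in brackets, filled dots passed the threshold and the orange bar is the list's median. Each list holds genes on both sides of 0, and medians lie between -0.16 and 0.052.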

How the data were processed

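FPKM values for 31368 genes in 6 libraries were used as the authors deposited them, with 0 columns left unassigned. Per the submitters' processing notes reads were handled with featureCounts 1.5.0-p3, StringTie 1.3.3b, HISAT2 2.0.5 and fastp on build hg38, with the role of each not stated. For the annotation release and the use of strand, the sources used here give nothing. Groups follow the treatment in the labels. The members and gene lists were chosen with earlier results of these data known.

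limma 3.58.1 (R 4.3.3), with trended and robust variance, was run on log2(FPKM + 1) for the 11792 genes that reached 1 FPKM in 3 or more of the 6 libraries, with group as the only term. Benjamini-Hochberg adjustment covered every gene tested, and an adjusted p under 0.05 passed. SE and 95% intervals are limma's, and ± beside FPKM is the SD over 3 libraries. Whole reads were recovered from low FPKM steps for 31366 genes, to within 0.003 reads, and summed to 25895115 to 39509993 per library. They came to 98.0% to 99.1% of the deposited denominators in lactate and 102.9% to 104.1% in untreated libraries. The denominators followed median-ratio size factors (CV 0.00118%), so the FPKM appear scaled between libraries, a step absent from the labels. Voom on these reads gave 11 members higher and 18 lower, with ERN1 among the lower.

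GENCODE 29 gave coordinates, exon lengths and GC content of the longest transcript. The GC and length trend was removed with natural splines (4 degrees of freedom each). Members share exon length with other genes by 25.2% (PDIA6, opposite strand), 14.8% (PDIA3, opposite), 14.4% (EIF2AK3, antisense), 13.5% (OS9, antisense), 12.2% (PDIA5, same strand) and 77.0% (DERL3, opposite); without strand such reads cannot be told apart. Every member is named. Of the other lists the 3 with the lowest p per direction were named, with paralogs of members and 5 stress outputs, and 2 in each direction of the cytosolic chaperones. Other steps used Python 3.11.15 (matplotlib 3.10.9, scipy 1.17.1, pandas 2.3.3, numpy 2.4.6). Alternatives were other filters, pseudocounts, scalings, variance models and call rules, a replicate block, and leaving out each library.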

Additional observations from a re-analysis of the deposited data

How the results depend on the processing

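Of the 28 members that passed, 19 (6 higher, 13 lower) kept their call and direction under every alternative other than the 2 stricter call rules, where tested. Against a minimum fold of 1.2, 429 genes, 1 member higher and 4 members lower passed. A filter at 5 FPKM left 7 members higher, since fewer genes were tested. The median of the members was -0.053 without a filter, -0.10 with the filter at 5 FPKM, -0.048 after quantile normalization, -0.089 after median centring, -0.092 with the GC and length trend removed (with or without the replicate block; with it EDEM3 passed as higher, adjusted p = 0.0467, and 9 members were higher) and -0.0026 with totals of recovered reads; the medians of all genes were -0.0067 after quantile normalization and 0.040 with those totals. The cause was not tested. Leaving out 1 library gave 5967 to 6432 genes, 10 to 11 members higher, 15 to 18 lower and medians of -0.091 to -0.060; EIF2AK3 was not tested without a lactate library, since it fell under the filter. ATF6 turned to -0.043 and SSR1 to -0.16 with the GC and length trend removed, with and without the replicate block, and CANX to 0.095 after quantile normalization. With the replicate number as a block, 11 members were higher and 17 lower, as without it, and 7039 genes passed; same-numbered libraries correlated at 0.053, 0.067 and -0.0038 in their deviations, so the numbers were not taken as pairs.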

Other observations

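Cytosolic chaperones, which fold proteins outside the ER, were read as a further list. Of 41 tested, 13 were higher, 19 lower and 9 not past, with a median log2 fold change of -0.039. Over all tested genes 27.7% were higher and 30.9% lower, with a median of -0.016. HSP90AA1, the inducible cytosolic Hsp90, averaged 434 ± 13 FPKM in lactate and 333.8 ± 7.6 FPKM in untreated cells (log2 fold change 0.38 ± 0.026, limma adjusted p = 3.69e-05). HSPH1, an Hsp110 cochaperone, averaged 34.6 ± 0.49 FPKM in lactate and 27.3 ± 0.14 FPKM in untreated cells (0.33 ± 0.021, adjusted p = 2.87e-05). The chaperonin subunits CCT3 and CCT7, which take part in folding actin and tubulin, were lower. CCT3 averaged 215 ± 2.2 FPKM in lactate and 283 ± 1.4 FPKM in untreated cells (-0.39), and CCT7 averaged 244 ± 0.47 FPKM in lactate and 315 ± 3.2 FPKM in untreated cells (-0.36). After quantile normalization the list had 19 higher and 9 lower, with a median of -0.0046, and with totals of recovered reads 16 higher and 15 lower, with a median of 0.017; no direction is read from these counts.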
